A study of Macaca mulatta with 304 samples.

Results

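On Day 150 after irradiation of the thorax, whole blood of 9 rhesus macaques (Macaca mulatta) was compared with blood that the same animals gave 2 days before irradiation. The libraries were chosen by their labels alone, as every animal with both a Day 150 draw and its own control, and they number 18, which is 5.92% of the libraries of the series, from 9 of its 28 animals. Total RNA was freed of ribosomal RNA before sequencing, and the deposited values are whole read counts per gene. The animals were adults of 3 to 5 years, of the Chinese sub-strain, 6 females (B1501, B1502, B1503, B1505, B1506 and B2502) and 3 males (B1002, B1003 and B1004). Of these, 8 had received 9.8 Gy and 1 female, B2502, had received 10.7 Gy, so the doses were not compared. The last draw was on Day 150 in B1501, on Day 160 in B1002 and on Day 172 in B1506, and the other 6 animals were drawn until Day 270. All animals were given tramadol or buprenorphine from Day 4 to Day 25, and dexamethasone was given to animals with rapid breathing, but the labels do not say which libraries follow that treatment.

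Whole blood carries RNA of lymphocytes, granulocytes, monocytes, platelets and young red cells, so a change in its RNA can come from the mix of cells as well as from each cell. Irradiated lung is known to pass through a phase of inflammation (radiation pneumonitis) weeks to months after exposure, and later through fibrosis. B cells are among the most radiosensitive cells of the blood, while neutrophils are short-lived and are renewed from bone marrow, large parts of which lie outside a thoracic field. In these bulk samples fewer cells of a type and less RNA per cell cannot be told apart.

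The Day 150 libraries held 2840219 to 8547589 counts (median 5803411), and the controls held 10851683 to 13575225 (median 11765302). The Day 150 library of B1502 stood apart, with the lowest total and 11695 genes with at least 1 count, against 14572 to 15993 in the other Day 150 libraries, so counts are also given without this animal. The labels carry a library number of unstated meaning, which was 0 in all 9 Day 150 libraries and above 0 in all 9 controls. The numbers form 3 blocks, named library series A, B and C below, where C is number 0. Library series and day therefore cannot be told apart between Day 150 and control, and the Day 30 libraries of the same animals, all 9 of series C, serve below as a second reference. Summed over 9 genes of the Y chromosome, levels were 552.8 to 771 CPM (counts scaled to a common library size) in the 6 libraries of males and at most 3.49 CPM in the 12 of females, as labelled. Each draw is 1 library, and p-values measure the spread between these 9 animals.

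Of 13751 genes tested, 1648 were higher on Day 150 than in the animal's own control (12% of those tested) and 2677 were lower (19.5%). Genes were called where the fold change was 1.5 or more and edgeR's quasi-likelihood test, blocked on the animal, gave an adjusted p (Benjamini-Hochberg) no higher than 0.05. The median log2 fold change of all tested genes was -0.17. With TMM scaling 1889 genes were higher and 2273 lower, which moved the median to -0.10 without changing the sign of any called gene. Without B1502 the counts were 1673 higher and 2678 lower. In 217 genes (1.58%) the lowest Day 150 library lay above the highest control, and in 386 genes (2.81%) the highest Day 150 library lay below the lowest control.

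Of the 25 gene lists, the B cell list had the largest share of members lowered. All list counts against control stand beside 12% higher and 19.5% lower of all tested genes. Of 26 tested members (28 listed), 24 were lower and 0 higher, with a median log2 fold change of -1.95 beside -0.17 for all tested genes. CD79B, a signalling chain of the B cell receptor (Mmul_10 chr16:60488425-60492051), had a lowest, median and highest level of 52.6, 172 and 365 CPM in controls and of 1.61, 17.1 and 67.7 CPM on Day 150. All 9 animals moved down, and the groups overlapped, with the lowest control in B1002 and the highest Day 150 level in B2502. Its log2 fold change was -3.10 (SE 0.33, adjusted p = 2.3e-05). CD79A, its partner chain (chr19:41019374-41024437), fell from 291 ± 127 to 61.9 ± 31.8 CPM (SD, n = 9), lower in 9 of 9 animals. MS4A1, which encodes the surface antigen CD20 (chr14:13717471-13733388), went from 81.4, 159 and 443 CPM (lowest, median and highest control) to 14.1, 43.8 and 135.7 CPM. The drop in MS4A1 was a log2 fold change of -1.94 (SE 0.28, adjusted p = 0.000137).

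The lowered B cell genes covered receptor chains, co-receptors and transcription factors alike. CD22, an inhibitory receptor, had a log2 fold change of -2.51, and CD72, another inhibitory co-receptor, of -2.75. PAX5, which keeps B cell identity, had -2.47, and TCL1A, high in naive B cells, had -2.76 (adjusted p = 0.00034). The 2 members past no threshold were VPREB3, with -0.91, and BTK, a kinase that myeloid cells also express, with 0.20. The list gave 23 lower without B1502, 24 in a fit over all libraries of the series with library series as a term, and 25 when only libraries of number 0 were used, where the 4 controls came from other animals.

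Genes of antibody-secreting cells were lowered in part. Of 12 tested members 5 were lower and 1 higher (median log2 fold change -0.93), beside 19.5% lower and 12% higher of all tested genes. MZB1, a chaperone of antibody assembly, fell from 21.4 ± 5.29 to 7.96 ± 3.75 CPM, and every Day 150 library lay below every control. TXNDC5, an oxidoreductase of the endoplasmic reticulum, fell by 1.35 on the log2 scale, also with no overlap. PRDM1, which drives plasma cell differentiation and is also found in T cells and myeloid cells, was the member that rose (log2 fold change 0.61), and it lost the call without B1003 or B1506, where 0 members were higher. JCHAIN, which joins antibody subunits, had -0.40 and did not pass the threshold. Also short of it were XBP1 (0.31), TNFRSF17 (-0.42), SDC1 (-1.18), FKBP11 (-0.81) and SSR4 (0.05). POU2AF1, among the lowered members with -1.21, is also in the B cell list.

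**Figure D1:**
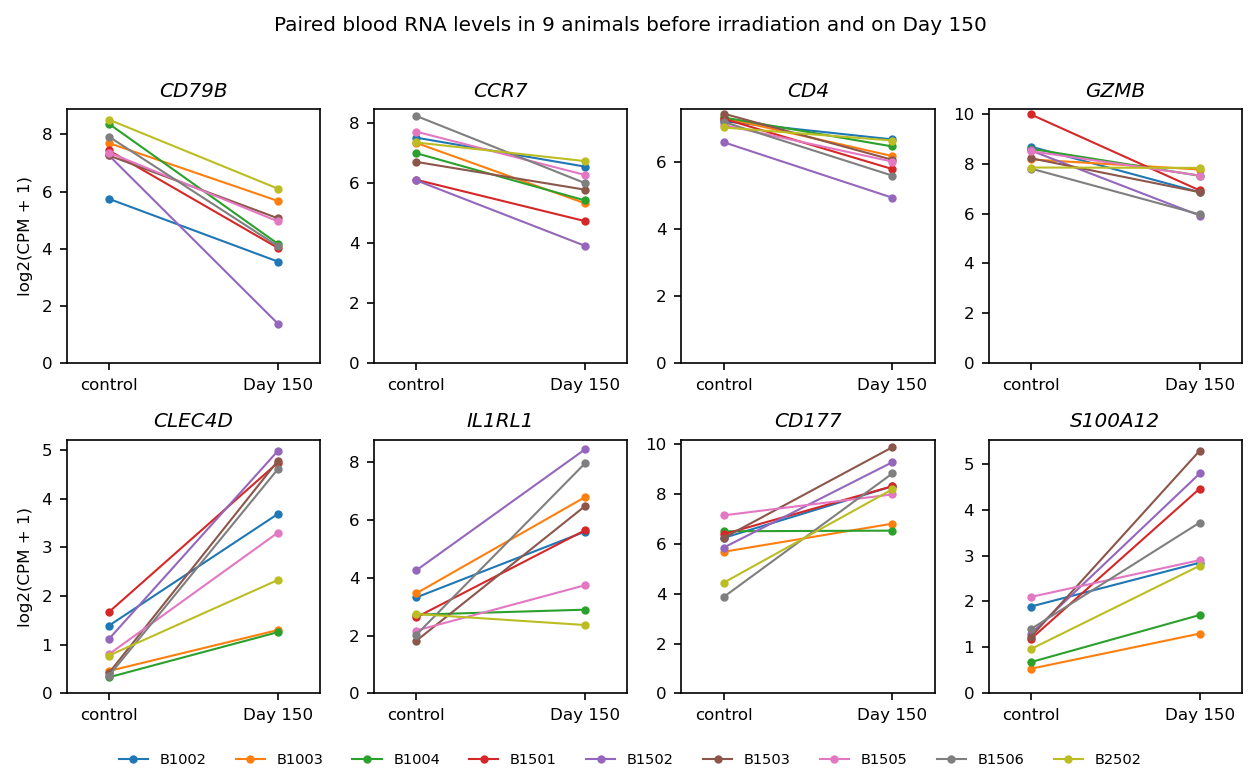
Levels of 8 genes, as log2(CPM + 1) on the vertical axis, in the control and the Day 150 library of each of 9 animals, joined by 1 line per animal. The lines of CD79B, CCR7 and CD4 run down in all 9 animals and those of CLEC4D, CD177 and S100A12 run up in all 9, while IL1RL1 was higher in 8.

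T cell genes were lower in part. Of 22 tested members (25 listed) 14 were lower and 0 higher, with a median of -0.82. Over all tested genes 19.5% were lower and 12% higher. CD4, the co-receptor of helper T cells, which monocytes also express (chr11:6953431-6986331), went from 96.3, 149 and 175 CPM in controls to 29.8, 66.5 and 102 CPM, lower in 9 of 9 animals. CD5, an inhibitory receptor of T cells and some B cells, fell by 1.57 on the log2 scale (SE 0.24, adjusted p = 0.000188) with no overlap between the groups. LCK, the kinase that starts T cell receptor signalling, fell from 308 ± 77.4 to 135.8 ± 62.6 CPM, and LAT, its adaptor, had a log2 fold change of -0.82.

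Of the CD3 chains CD3D, CD3E and CD3G, CD3D passed the threshold. CD3E had a log2 fold change of -0.48 (SE 0.20, adjusted p = 0.0613) and was higher in 4 of 9 animals. CD3G had -0.31 and CD8A, of killer T cells, had -0.44, and neither passed the threshold, while CD3D fell by 0.85. In the fit with library series as a term CD3E passed the threshold, with -0.91, as it did within libraries of number 0 (-1.02).

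Genes of naive and resting lymphocytes followed the same direction, with 6 of 10 tested members lower and 1 higher (median -0.68). The shares over all tested genes were 19.5% lower and 12% higher. CCR7, the receptor that guides naive and central memory cells to lymph nodes, went from 67.8, 162.5 and 304.2 CPM to 14.1, 54.3 and 106.2 CPM, lower in 9 of 9 animals (log2 fold change -1.50, SE 0.19, adjusted p = 5.2e-05). The transcription factors TCF7 and LEF1 had log2 fold changes of -1.34 and -1.11. Without B1502 the members lowered numbered 4.

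Of 22 tested killer cell genes 8 were lower and 1 higher (median -0.57), beside 19.5% and 12% of all tested genes. GZMB, a granule protease, went from 222.8, 361.4 and 1005.6 CPM in controls to 59.6, 120.7 and 226.8 CPM, lower in 9 of 9 animals, and PRF1, which makes pores in target cells, fell by 1.14 on the log2 scale. NKG7, another granule gene, had -0.26 (adjusted p = 0.402), KLRD1 -0.16 and FGFBP2 -0.11, all short of the threshold (NKG7 passed within libraries of number 0, with -1.05), and NCR3, an activating receptor of natural killer cells, rose (0.82). Without B2502 the members higher numbered 2. The list's median change was above 0 in B1003 (0.27) and B2502 (0.40) and below 0 in the other 7 animals.

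Of 9 tested dendritic cell genes 4 were lower and 0 higher (median -0.81), and 2 were lower within libraries of number 0. Of all tested genes 19.5% were lower. TCF4, a transcription factor of plasmacytoid dendritic cells that B cells also express, fell from 80.9 ± 28.2 to 32.6 ± 18.8 CPM. FCER1A, a chain of the IgE receptor found on basophils and dendritic cells, fell by 2.54 on the log2 scale from a median of 5.45 CPM. IL3RA, the IL-3 receptor chain of plasmacytoid dendritic cells and basophils, had -0.99 and lost its call without B1002, B1004 or B1503, at values between -0.999 and -0.868. Of 8 tested basophil and mast cell genes 5 were lower and 1 higher (median -1.38), and 3 were lower without B1002 or B1503. The higher member, KIT, a growth factor receptor of mast cells, lost its call without B1501, B1502, B1506 or B2502, where 0 were higher. CMA1, the protease chymase, fell from 22.5 ± 8.53 to 5.37 ± 3.52 CPM with no overlap. CPA3, a granule carboxypeptidase, had -1.98 and missed the threshold within libraries of number 0, with -1.25, where 2 members were lower. MS4A2, another chain of the IgE receptor, had -1.77 (adjusted p = 0.0335) and lost its call when any of B1002, B1003, B1502, B1503, B1506 or B2502 was left out, with values of -1.90, -1.57, -1.47, -1.56, -1.61 and -1.84.

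Most neutrophil granule genes rose. Of 17 tested granule genes (22 listed) 12 were higher and 0 lower, the median change being 1.78 on the log2 scale. LCN2, which binds bacterial iron carriers (chr15:12445748-12450081), went from 0.80, 2.46 and 4.79 CPM in controls to 2.93, 12.5 and 208 CPM, higher in 9 of 9 animals (log2 fold change 2.78, SE 0.49, adjusted p = 0.000519). CD177, a surface protein of a subset of neutrophils (chr19:43427669-43445856), went from 13.5, 74.03 and 139.6 CPM to 91.02, 315 and 933.5 CPM. The level of CD177 was nearly even between the draws of B1004, at 89.4 and 91.02 CPM. Its largest fold increase was in B1506, from 13.5 to 449.9 CPM, and in B1503 it went from 74.06 to 933.5 CPM.

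The spread between animals was wide among these genes. MMP8, a collagenase of neutrophil granules, had the largest log2 fold change of the list, 3.33 (SE 0.70, adjusted p = 0.00173), with Day 150 levels from 0.52 to 116.9 CPM, and it was higher in 8 of 9 animals. Of the genes of secondary and tertiary granules CAMP, a precursor of an antimicrobial peptide, rose by 1.78 and PGLYRP1, a peptidoglycan binder, by 2.18, while LTF, lactoferrin, had 0.49 (adjusted p = 0.343) and was higher in 5 of 9 animals. Of the primary granule genes BPI, which binds bacterial endotoxin, rose by 2.03 and MPO, the peroxidase of neutrophils, by 1.13, while AZU1 had 0.20 and did not pass the threshold. ELANE, PRTN3, CTSG, CEACAM8 and DEFA4 had too few counts for the test.

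Genes of mature neutrophils rose in part. Of 19 tested members 14 were higher and 0 lower (median 1.14). S100A12, an alarmin that binds the receptor RAGE (chr1:97682945-97683828), went from 0.45, 1.34 and 3.28 CPM to 1.47, 6.46 and 37.9 CPM, higher in 9 of 9 animals (log2 fold change 2.74, SE 0.43). FPR2, a receptor for bacterial and mitochondrial peptides, went from 18.6 ± 11.4 to 109.7 ± 95.1 CPM, and AQP9, a water and glycerol channel, rose by 1.62. CSF3R, the receptor of the growth factor G-CSF and one of the most abundant genes of the list, had 0.42 (SE 0.32, adjusted p = 0.304) and was higher in 4 of 9 animals. With library series as a term CSF3R passed, at 0.77, and 18 of the 19 members were higher. ALPL, neutrophil alkaline phosphatase, had -1.55 without passing the threshold.

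Eosinophil genes pointed the same way, with 6 of 8 tested members higher and 0 lower (median 1.15). IL5RA, the receptor chain for the eosinophil growth factor IL-5, rose by 1.57 (adjusted p = 0.012), and ADGRE1, which macrophages express too, rose from 102.7 ± 28.6 to 247 ± 82.3 CPM, higher in 9 of 9 animals. Within libraries of number 0 the members called higher numbered 3.

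Most tested members of the IL-1 and IL-18 family and most C-type lectins of myeloid cells rose. The IL-1 and IL-18 cytokines act on paired receptor chains that signal through the same adaptor as Toll-like receptors, and several receptors are decoys or have soluble forms. Of 10 tested family members (16 listed) 8 were higher and 0 lower (median 1.72). IL1RL1, the receptor of IL-33 (chr13:6097119-6131894), went from 2.52, 5.60 and 18.1 CPM in controls to 4.15, 48.96 and 346.5 CPM on Day 150. It was higher in 8 of 9 animals, B2502 being the exception, and nearly even in B1004, at 5.60 and 6.44 CPM. Its log2 fold change was 3.00 (SE 0.58, adjusted p = 0.000975).

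IL18R1 and IL18RAP, which lie just after IL1RL1 on chromosome 13, rose too, while IL1RL2 of the same family was not tested. IL18R1, the ligand-binding chain of the IL-18 receptor (chr13:6137599-6180884), went from 12.7 CPM in the median control to 30.7 CPM and was higher in 9 of 9 animals, with a log2 fold change of 2.20. IL18RAP, its accessory chain (chr13:6193733-6226056), went from 3.01, 4.10 and 6.96 CPM to 4.87, 23.9 and 93.2 CPM (log2 fold change 2.67, SE 0.40). IL1R2, a decoy receptor that binds IL-1 without signalling (chr13:5801167-5820963), rose by 2.12, with its highest Day 150 levels in B1502 (979 CPM) and B1506 (703 CPM). Among the ligands and inhibitors IL1RN, the natural antagonist of the IL-1 receptor, rose by 1.83 with no overlap between groups and IL18 by 1.56, while IL1B had 0.42 and IL18BP, which neutralizes IL-18, -0.07, both short of the threshold.

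CLEC4D, a C-type lectin of myeloid cells that senses mycobacterial and fungal surfaces (chr11:11281953-11290714), had one of the 2 largest increases of the named genes. It went from 0.26, 0.71 and 2.18 CPM in controls to 1.39, 11.9 and 30.6 CPM, higher in 9 of 9 animals (log2 fold change 3.83, SE 0.46, adjusted p = 4.2e-05). Its neighbours CLEC4E, which senses fungi and dead cells, and CLEC4A, an inhibitory lectin, rose by 2.13 and 1.97. CLEC7A, the beta-glucan receptor, rose by 1.74 with no overlap, and 8 of 10 tested lectins were higher and 0 lower (median 1.36).

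Of 21 tested Toll-like receptor and inflammasome genes 15 were higher and 1 lower (median 1.09). TLR4, the endotoxin receptor, went from 291, 461 and 704 CPM to 664.5, 1121 and 2534 CPM, higher in 9 of 9 animals (log2 fold change 1.41, SE 0.23). IRAK3, which restrains signalling from these receptors, rose by 2.09 and NLRC4, an inflammasome sensor of bacterial proteins, by 1.91. TLR7, a sensor of single-stranded RNA in B cells and plasmacytoid dendritic cells, was the member that fell (-1.25), and MYD88, the shared adaptor, had 0.21.

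Of 22 tested monocyte genes 9 were higher and 2 lower (median 0.40), beside 12% and 19.5% of all tested genes. The number lower was 0 or 1 without any 1 of B1002, B1003, B1501, B1502, B1503, B1505 and B1506. CD14, the defining marker of classical monocytes, had a log2 fold change of 0.18 (SE 0.27, adjusted p = 0.615) and was higher in 4 of 9 animals, and its sign changed when B1506 or B2502 was left out. CD163, a scavenger receptor for hemoglobin, rose from 64.9 ± 25.2 to 195.1 ± 125.3 CPM, higher in 9 of 9 animals, and ITGAM, an integrin chain of neutrophils and monocytes, rose from 199.6 ± 61.4 to 592 ± 302 CPM with no overlap. C1QC, a chain of complement C1q, had -1.73 (adjusted p = 0.0424) at a median control level of 1.98 CPM and lost its call when any of B1002, B1003, B1501, B1502, B1503, B1505 or B1506 was left out (values of -1.81, -1.44, -1.59, -1.49, -1.71, -1.52 and -1.72). C1QB, another chain, had -0.47, and passed within libraries of number 0 (-1.91).

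**Figure D2:**
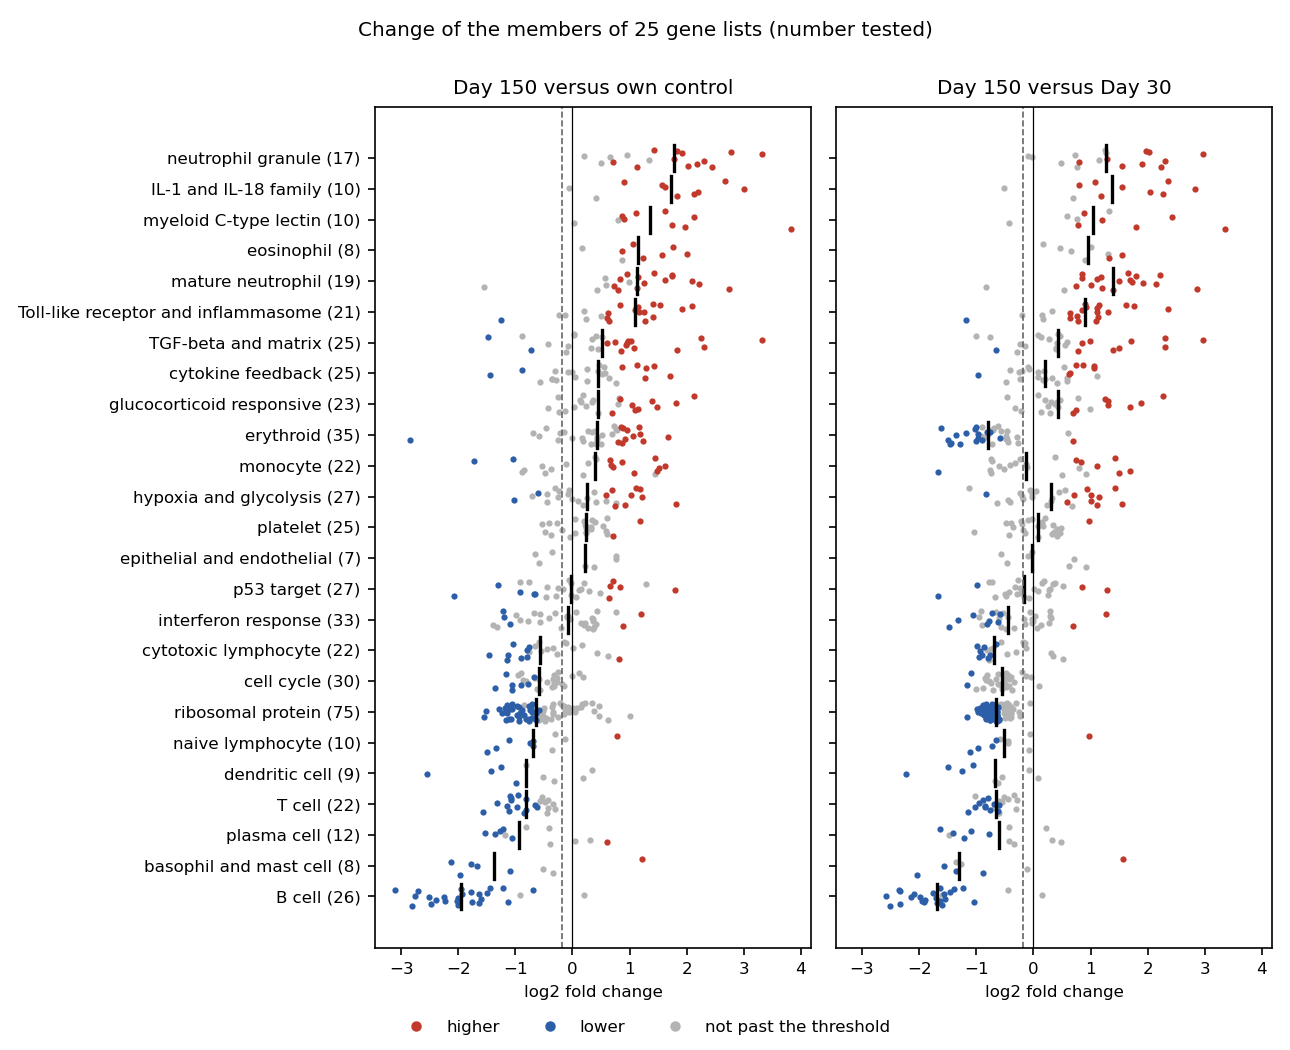
Log2 fold changes (horizontal axis) of the tested members of 25 gene lists, for Day 150 versus own control (left) and Day 150 versus Day 30 of the same animals (right). Each point is a gene, red where called higher, blue where called lower and grey otherwise, black bars are list medians and the dashed line is the median of all tested genes, at -0.17 on the left and -0.19 on the right. B cell genes lie lowest and neutrophil granule, IL-1 and IL-18 family genes highest on the left, and the erythroid median changes from 0.43 on the left to -0.79 on the right.

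Over all genes, the largest increases among genes of at least 1 CPM that moved the same way in 9 of 9 animals were those of CSTA, CLEC4D, LGR4, SGMS2, LCN2, UNC5D, S100A12, CAPNS2, MGST1 and IL18RAP. CSTA, an inhibitor of cathepsins found in myeloid cells and epithelia (chr2:153970849-153987384), went from 0.084, 0.75 and 2.21 CPM in controls to 2.79, 12.2 and 22.1 CPM, with a log2 fold change of 3.84 (SE 0.48, adjusted p = 5.1e-05). No Day 150 level of CSTA reached down to a control. SGMS2, a sphingomyelin synthase of the plasma membrane, went from 11.1 ± 3.25 to 91.5 ± 52.3 CPM, also with no overlap (log2 fold change 2.87, adjusted p = 1.3e-05). LGR4, a receptor that strengthens Wnt signalling, had 3.16 from a median of 0.40 CPM, and MGST1, a glutathione transferase of membranes, had 2.705.

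Among the largest decreases by the same rule were those of UBE2Q2L, UST, CD79B, C16H17orf113, HBB, USP2, DENND2A, TCL1A and WNT7B. UST, a sulfotransferase of glycosaminoglycans, fell from 5.01 ± 1.37 to 0.54 ± 0.59 CPM with no overlap (log2 fold change -3.29, SE 0.48, adjusted p = 0.000136). DENND2A, a guanine nucleotide exchange factor for a Rab protein, fell from 20.03 ± 12.8 to 2.68 ± 1.78 CPM. WNT7B, a secreted Wnt ligand, had -2.76, and UBE2Q2L, whose reads may be shared with related gene copies, had -3.50 with a median of 0 CPM on Day 150. CCDC141, a centrosome-associated protein, had -3.75 (SE 0.74) and was lower in 8 of 9 animals.

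Red cell genes were higher in part, and a globin chain was lower. Of 35 tested erythroid genes 11 were higher and 1 lower (median 0.43), beside 12% and 19.5% of all tested genes. Within libraries of number 0 the members higher numbered 5 and those lower 0. TSPO2, a protein of late red cell precursors, rose from 6.41 ± 4.51 to 20.9 ± 14.1 CPM, higher in 9 of 9 animals, and SLC25A37, the mitochondrial iron importer, from 508 ± 184 to 1250 ± 530.4 CPM. ALAS2, the rate-limiting enzyme of heme synthesis in red cells, had 0.41 (SE 0.34, adjusted p = 0.362) and was higher in 5 of 9 animals. DCAF12, an adaptor of a ubiquitin ligase, rose by 1.16 and DCUN1D1, an activator of such ligases, by 1.04. The erythroid list median ranged from -0.60 in B1501 to 1.97 in B1004.

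HBB, the beta chain of adult hemoglobin, was the lowered member, from 31.99, 84.2 and 229.9 CPM to 3.62, 15.2 and 23.9 CPM with no overlap (log2 fold change -2.85, adjusted p = 5.6e-05). On Day 60, 90, 120 and 240 its level was lower in library series C than in series B with no overlap, and on Day 40 these series overlapped. On Day 60 it was 136.1 to 289 CPM in 4 libraries of series B and 3.07 to 21.1 CPM in 5 of series C, and on Day 90 it was 132.2 to 295 CPM in series B and 4.15 to 22.7 CPM in series C. On Day 120 it was 186 to 978 CPM in series B and 5.55 to 28.9 CPM in series C. On Day 240 it was 485 to 969 CPM in 2 libraries of series B and 9.93 to 56.4 CPM in 4 of series C. On Day 40 it was 455 to 1264 CPM in series B and 307 to 997 CPM in series C, and on Day 270 series C reached 646 CPM. On Day 21 the 1 library of series C had 2097 CPM, above the 340 to 1875 CPM of 8 libraries of series A. With libraries of number 0 alone the log2 fold change was -0.03, and with library series as a term it was -1.59. Against Day 30 of the same animals, also series C, HBB had a log2 fold change of -1.495 (SE 0.28, adjusted p = 0.0021). It was lower than on Day 30 in 8 of 9 animals. The kit used to remove ribosomal RNA is also designed to remove globin RNA, and its part in these levels was not tested. Reads of HBB may also be shared with other globin genes.

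Platelet genes showed few changes, with 2 of 25 tested members higher and 0 lower (median 0.23), beside 12% and 19.5% of all tested genes. The 2 were RGS18, a regulator of G protein signalling, and MMRN1, a factor V binding protein. PPBP, a platelet chemokine, had 0.58 (SE 0.24, adjusted p = 0.0683), and passed the threshold with TMM scaling (0.655), with DESeq2 (0.662) and without B2502 (0.688). Without B1502 the members called higher numbered 5 and without B1503 they numbered 4.

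Of 27 tested targets of p53, the transcription factor activated by DNA damage, 5 were higher and 5 lower (median -0.03), shares near the 12% and 19.5% of all tested genes. TP53INP1, which amplifies p53 signalling (chr8:95241175-95264326), went from 120.1, 155 and 224.6 CPM to 342, 525 and 927 CPM with no overlap (log2 fold change 1.80, SE 0.18, adjusted p = 1.6e-05). MDM2, the ligase that degrades p53, rose by 0.84 in 9 of 9 animals. CDKN1A, the cell cycle inhibitor p21, rose by 0.63 (adjusted p = 0.00983) in 8 of 9, but the change was 0.55 without B1506 and no longer passed.

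The lowered p53 targets were PHLDA3, an inhibitor of the kinase AKT, with -2.08, AEN, a nuclease, with -1.30, and FDXR, BAX and POLH, with -0.92, -0.65 and -0.67. PHLDA3 and AEN showed no overlap between the groups. EDA2R, a receptor of the tumour necrosis factor family, had 1.28 (SE 0.49, adjusted p = 0.0505), at levels of 0.18 to 8.04 CPM on Day 150. EDA2R passed under 5 alternatives, with values from 1.29 (filter on the compared libraries) to 1.77 (no animal block), and 1.51 without B1003. The number of lower targets was 2 or 3 when B1003, B1004, B1501, B1503, B1505 or B1506 was left out. It was 3 with library series as a term, with TMM scaling and with thinned counts, and 2 within libraries of number 0. PHLDA3 lost its call within number 0, with -1.33.

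Of 23 tested genes that answer to glucocorticoids 9 were higher and 0 lower (median 0.45), beside 12% and 19.5% of all tested genes. Those that passed included CD163, IL1R2 and ADORA3, a receptor of adenosine (1.81), which are myeloid genes as well. FKBP5, a chaperone that the glucocorticoid receptor induces, had 0.45 (SE 0.23, adjusted p = 0.138), TSC22D3, which encodes the leucine zipper GILZ, 0.35 and PER1, a clock gene, 0.81, all short of the threshold. With library series as a term FKBP5 (0.84) and PER1 (1.44) passed, PER1 also without the animal as a block (1.46), and TSC22D3 passed within libraries of number 0 (1.09). The animals were uneven: on Day 150 FKBP5 was 1080.0 CPM in B1502 and 524 CPM in B1506 but 161 to 378 CPM in the other 7, beside 140.5 to 331 CPM in controls. ZBTB16, a transcription factor that the receptor also induces, was 321.5 CPM in B1502, 234.2 CPM in B1506 and 13.4 to 77.5 CPM in the others. Its log2 fold change was 1.15 (adjusted p = 0.0317) and lost the call without B1502 (0.84), B1503 (1.04) or B1506 (0.87). The part of dexamethasone in these values was not tested.

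Among feedback regulators of cytokine signalling 6 of 25 tested genes were higher and 2 lower (median 0.46). Of all tested genes 12% were higher and 19.5% lower. SOCS3, which blocks receptors of the IL-6 type, rose by 1.26, BCL6, a transcriptional repressor, by 1.43 and JAK2, a kinase of cytokine receptors, by 1.28 with no overlap. JAK3, the kinase of lymphocyte cytokine receptors, fell by 1.44, lower in 9 of 9 animals. Interferon-stimulated genes showed no common change, with 2 of 33 higher, 3 lower and a median of -0.07. SAMD9L, an antiviral factor, rose from 290 ± 81.7 to 713 ± 337 CPM, while OAS1, a sensor of double-stranded RNA, and USP18, an inhibitor of interferon signalling, fell by 1.21 each. With library series as a term OAS1 had -0.47 and lost its call, and USP18 lost its call within libraries of number 0 (-0.88) and with thinned counts (-1.09). The median change of the list was 1.91 in B1506 and -0.93 to 0.40 in the other 8 animals, and the members called lower numbered 11 without B1506 and 5 without B1003 or without B1503. CXCL10, an interferon-induced chemokine, had too few counts for the test, with at most 2.56 CPM in the 18 libraries.

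Of 25 tested genes of TGF-beta signalling and matrix, a pathway of fibrosis, 12 were higher and 2 lower (median 0.51). The largest were neutrophil and monocyte products: MMP8, PLAUR, the urokinase receptor (2.24), and MMP9, a gelatinase, from 38.7, 178 and 246 CPM to 217, 688.5 and 1736 CPM. TGFB1 itself had -0.11 and TGFBR1, its receptor, rose by 0.97, while SMAD3, a transducer, fell by 0.73 and LTBP3, which binds latent TGF-beta, by 1.47. Of 27 tested hypoxia and glycolysis genes 9 were higher and 2 lower (median 0.25), among them HK3, a hexokinase of myeloid cells (1.81), and LDHA, which makes lactate (1.18, with no overlap). The lower members numbered 1 without B1501, B1503 or B1505. Beside both lists stand 12% higher and 19.5% lower of all tested genes.

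Of 30 tested cell cycle genes 7 were lower and 0 higher (median -0.58), near the 19.5% of all tested genes that were lower. The number lower was 3 with library series as a term and 4 within libraries of number 0. The largest were MCM5 and MCM3, of the replicative helicase, at -1.36 and -1.17. Leaving out B1004 gave 12 lower and leaving out B1503 gave 4, and CENPF, a centromere protein with -1.05, had 0.02 within libraries of number 0. Of 75 tested ribosomal protein genes 36 were lower and 0 higher (median -0.63), 16 with library series as a term and 18 lower with 2 higher within libraries of number 0. Without B1506 the members higher numbered 3. The median change of this list lay between -2.28 in B1506 and 0.45 in B1503. Ribosomal protein genes took 0.621% to 1.85% of counts on Day 150 and 1.29% to 4.28% in controls, and have many processed copies in the genome with which reads can be shared. Of 17 epithelial and endothelial marker genes 7 could be tested, 0 of them changed, and the defining lung markers SFTPC and SCGB1A1 had too few counts.

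**Figure D3:**
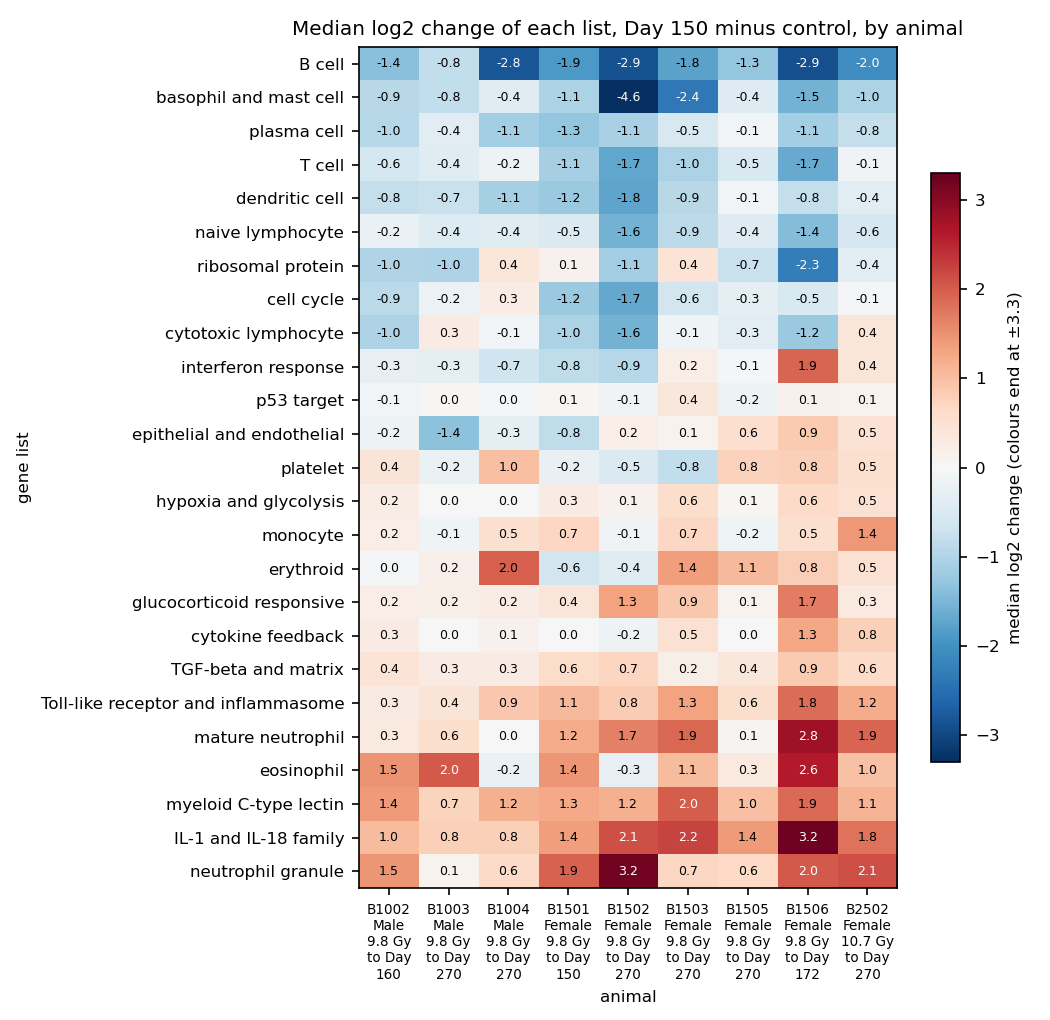
Median log2 change of each of 25 gene lists (rows), Day 150 minus control, in each of 9 animals (columns, with sex, dose and last day drawn). The B cell row is negative in all 9 animals, from -0.80 in B1003 to -2.89 in B1506, and the neutrophil granule, IL-1 and IL-18 family and C-type lectin rows are positive in all 9.

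The animals differed in the size of the change. The B cell median ran from -0.80 in B1003 to -2.89 in B1506, with -2.88 in B1502, -2.83 in B1004 and -2.04 in B2502, the animal at 10.7 Gy. The IL-1 and IL-18 family median ran from 0.79 in B1004 to 3.22 in B1506. B1004 combined one of the largest B cell decreases with one of the smallest neutrophil changes (0.64 for granule genes and 0.004 for mature neutrophil genes). B1506 had the largest median change of the mature neutrophil (2.79), IL-1 and IL-18 family, Toll-like receptor (1.84) and glucocorticoid lists (1.69). The T cell median was below 0 in 9 of 9 animals, from -0.13 in B2502 to -1.70 in B1502.

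No difference between the sexes in the Day 150 change passed the threshold. By edgeR's test of the day-by-sex interaction 0 of 13751 genes (0%) had an adjusted p of at most 0.05 (smallest 0.871), 617 had an unadjusted p under 0.05, and DESeq2 called 0. The smallest unadjusted p was that of IL18RAP, whose mean change was 0.94 in 3 males and 3.39 in 6 females, a difference of -2.45 (SE 0.56, adjusted p = 0.871). IL1R2 came next, with 0.61 in males and 2.93 in females. The same test of animals whose last draw was by Day 172 (B1002, B1501 and B1506) against the other 6 also called 0 genes (0%), with 1.42% of genes at an unadjusted p under 0.05 and 0 calls by DESeq2.

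Set against Day 30 of the same animals, whose libraries also carry number 0, Day 150 again had lower B cell genes and higher neutrophil genes. Here 1118 genes were higher (8.13% of those tested) and 1542 lower (11.2%), with a median log2 difference of -0.19 over all tested genes. With TMM scaling 1356 were higher and 1112 lower, a share of higher genes of 54.9% against 42%, with the median at -0.11, so the balance of directions depends on the scaling. Both comparisons use the same Day 150 libraries, so they are not independent. The labels do not say that libraries of number 0 were made together. Within number 0, HBB was 306.9 to 997 CPM in 4 libraries on Day 40 and 3.07 to 21.15 CPM in 5 on Day 60.

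Of the 26 tested B cell genes 23 were lower than on Day 30 and 0 higher (median -1.70). CD79A was 251 ± 162 CPM on Day 30, and lower on Day 150 in 9 of 9 animals (log2 fold change -1.94, SE 0.21, adjusted p = 0.000123). CD79B and MS4A1 had -2.36 and -2.08, each lower in 9 of 9. T cell genes had 11 lower and 0 higher (median -0.65), and GATA3, a factor of helper T cells that was not called against control, fell by 0.68.

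Neutrophil genes rose from Day 30 as well. Of 19 mature neutrophil genes 17 were higher (median 1.39), S100A12 with 2.86, and of 17 granule genes 9 were higher (median 1.28), CD177 with 2.24 in 9 of 9 animals. The IL-1 and IL-18 family had 8 of 10 higher, with IL1RL1 at 7.74 ± 4.38 CPM on Day 30 and 101.2 ± 119.3 CPM on Day 150 (log2 fold change 2.84, adjusted p = 0.00297). CLEC4D rose from 1.26 ± 1.15 CPM by 3.35 on the log2 scale, higher in 8 of 9. FKBP5 rose by 0.69 (adjusted p = 0.0379), in 8 of 9 animals. C-type lectins had 6 of 10 higher and 0 lower, and Toll-like receptor and inflammasome genes 16 of 21 higher and 1 lower. Eosinophil genes had only 2 of 8 higher and 0 lower (median 0.95), against 6 higher in the control comparison. Monocyte genes had 6 of 22 higher and 1 lower, with a median of -0.12, where it was 0.40 against control.

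The 5 largest increases from Day 30 were those of LGR4, CLEC4D, MMP8, ABHD12B and S100A12, and the 5 largest decreases those of CCDC141, UBE2Q2L, C16H17orf113, TCL1A and WIF1. ABHD12B, a hydrolase, rose from 0.54 ± 0.51 to 4.08 ± 2.67 CPM in 9 of 9 animals, and WIF1, a secreted Wnt inhibitor, fell by 2.87 on the log2 scale, lower in 8 of 9.

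The red cell genes differed in direction between the references. Against Day 30, 16 of 35 erythroid genes were lower and 1 higher (median -0.79), where against control 11 had been higher. ALAS2 was 15120 ± 7983 CPM on Day 30 and 6231 ± 3204 CPM on Day 150 (log2 fold change -1.28, adjusted p = 0.0184), with 4423 ± 1516 CPM in controls. Interferon genes had 8 of 33 lower and 2 higher against Day 30 (median -0.44), and ribosomal protein genes had 47 of 75 lower (median -0.65).

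**Figure D4:**
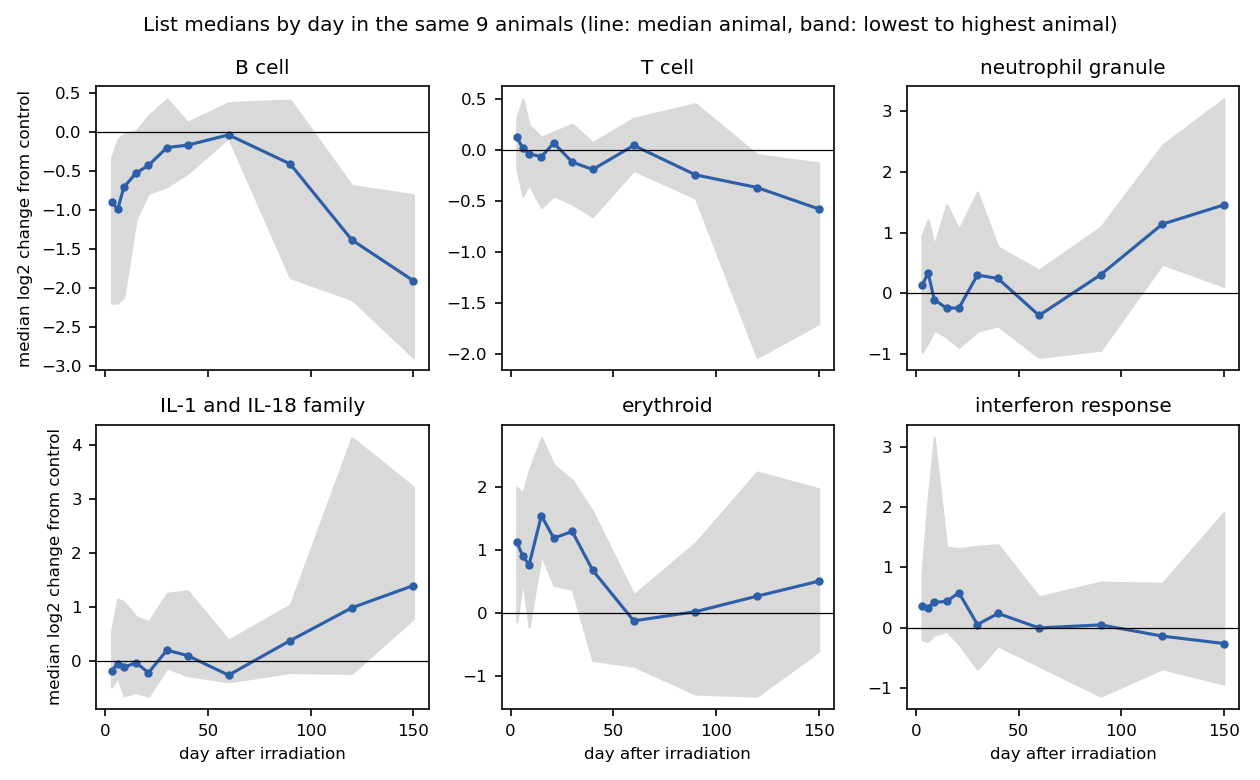
Median log2 change from own control of 6 gene lists (vertical axes) by day after irradiation (horizontal axis, Day 3 to Day 150) in the same 9 animals. The line is the median animal and the band spans the lowest to the highest animal, with the B cell line at -0.89 and -0.99 on Day 3 and 6, near 0 on Day 60 and at -1.91 on Day 150.

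Followed through all their draws, the same 9 animals showed B cell RNA low at 2 separate times. The median animal's B cell change was -0.89 on Day 3 and -0.99 on Day 6, -0.20 on Day 30 and -0.03 on Day 60, then -0.41 on Day 90, -1.38 on Day 120 and -1.91 on Day 150. On Day 60 the list median was above 0 in 3 of the 9 animals, and on Day 120 and 150 in 0. CD79A averaged 123.1 ± 58.6 CPM on Day 9, 266 ± 166 CPM on Day 60 and 61.9 ± 31.8 CPM on Day 150. These are descriptions of 1 set of animals against 1 control each, and the library series changed along the way: Day 3 to 15 were series A, and Day 40, 60, 90 and 120 mixed series B and C.

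The lists of myeloid genes differed in time. The monocyte change was 0.73 on Day 3 and 0.58 on Day 6, above 0 in 9 of 9 animals, and the eosinophil change was 2.01 on Day 90. The median animal's IL-1 and IL-18 family change lay between -0.26 and 0.38 from Day 3 to Day 90, and was 0.98 on Day 120 and 1.40 on Day 150. The granule gene change was -0.36 on Day 60, 1.14 on Day 120 and 1.45 on Day 150, above 0 in 9 of 9 animals on both of the later days. IL1RL1 averaged 13.3 ± 7.22 CPM on Day 90 and 241 ± 361 CPM on Day 120. The erythroid change was 1.55 on Day 15, the highest from Day 3 to Day 150, and -0.12 on Day 60.

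No gene passed the edgeR threshold between Day 150 and its neighbouring draws. Against Day 120 in the same 9 animals 0 genes changed by edgeR (0% of those tested, smallest adjusted p 0.448), with 767 at an unadjusted p under 0.05, and DESeq2 called 7. CD79A was 84.8 ± 36.7 CPM on Day 120, a log2 difference of -0.49 (SE 0.17, adjusted p = 0.847), lower on Day 150 in 8 of 9 animals. IL1RL1 had -0.30 (SE 0.61), and FKBP5, at 743 ± 858 CPM on Day 120, had -0.42 (SE 0.49). The B cell list median was -0.49 and that of the IL-1 and IL-18 family 0.03.

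Against Day 180 in the 6 animals that had both, 0 genes changed by edgeR (0%, smallest adjusted p 0.527), with 1298 at an unadjusted p under 0.05, and DESeq2 called 2 with no adjusted p for 10131 genes. CD79A was 77.2 ± 38.3 CPM on Day 180 (log2 difference 0.01, SE 0.22) and the B cell list median was 0.13. IL1RL1 was 10.3 ± 6.12 CPM on Day 180, a log2 difference of 2.09 (SE 0.64, adjusted p = 0.527), higher on Day 150 in 5 of 6 animals. In those 6 animals the median B cell change from control was -1.77, -1.93, -2.10 and -1.45 on Day 180, 210, 240 and 270, and it was below 0 in all 6 each time.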

How the data were processed

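Whole blood RNA was sequenced by the authors after removal of ribosomal RNA. Their processing notes name cutadapt 2.10, STAR 2.7.6a, Subread 2.0.1 and the build Mmul_10. The deposited table holds whole counts of 21070 genes in 304 samples, and whether counting used strand is not given in the sources used here. The authors also deposited log2 values of 16730 genes after scaling, of which 18 columns were used in an alternative and 286 columns were not used.

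The 13751 genes tested had 3 counts or more in 80% of all samples. Upper quartile factors scaled the libraries. Counts were compared with edgeR 4.0.16 (R 4.3.3, quasi-likelihood test, animal as a block). Each SE is the absolute log2 change over the root of F. CPM values used scaled library sizes, and changes per animal used log2 CPM with a prior count of 2. Alternatives used DESeq2 1.42.0 and limma 3.58.1. Samples were paired by animal, and correlations of deviations between the draws of an animal ran from -0.175 to 0.466. The animal's own control gave the highest correlation for 7 of the 9 Day 150 libraries, and not for the rest. No pair of the 18 libraries was identical. The fits were tested on simulated data. Changes were planted only in genes above a minimum mean count, as many up as down, and library series was not simulated. The shares therefore do not describe genes of the lowest counts or an effect of library series. Against control 68% of 100 genes with a log2 change of 1 and 98% of 100 with 2 were recovered, with 7 false calls. These were far fewer genes than were called in the data. Against Day 30 the shares were 62% and 98%, with 5 false calls. The test of the sexes was tried only with a log2 difference of 3, of which 90.5% were recovered, so smaller differences were not simulated. Positions are from the RefSeq annotation of Mmul_10.

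Genes were named by rule: up to 3 members of each list with the largest change in at least 8 of 9 animals, the 10 highest and 10 lowest genes of at least 1 CPM, the 5 highest and lowest of the Day 30 comparison and a fixed list. Results of some genes that the rule names are not reported here. Other list members are quoted as examples chosen after their values were seen. The members, gene lists and tests were chosen with earlier results of these data known.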

Additional observations from a re-analysis of the deposited data

Results flagged for a closer look

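List medians by animal, and levels of named genes in the controls and in the Day 150 libraries, were examined as groups of 9 values. Levels were tested as log2(CPM + 1) and are quoted below as CPM. In 18 groups (7.79% of those examined) 1 sample lay far from the other 8 by Dixon's test at the 95% level, which chance gives in about 1 of 20 groups. Of the 18, 6 belonged to the shallow Day 150 draw of B1502. Its median change of the basophil and mast cell list was -4.61, with -2.35 in the next animal. In that library MCM5 was at 0 CPM (next lowest 4.77 CPM), which allows up to 1.21 CPM at 3 counts, JAK3 at 1.21 CPM (next 13.9), TCF7 at 39.4 CPM (next 152) and OSMR at 32.998 CPM, above 7.47 CPM in the next.

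The interferon response list had a median change of 1.91 in B1506, with 0.40 in the next animal, and the control of B1506 had 71.5 CPM of AEN (next 50.7). The control of B1002 was low in B cell genes, with CD79B at 52.6 CPM (next 152), CD79A at 90.4 CPM (next 213.4) and TCL1A at 0.93 CPM (next 7.14). The control of B1502 was low in CD4, at 96.3 CPM (next 131.1), and in JAK3, at 19.7 CPM (next 42.6). The control of B1501 had 1005.6 CPM of GZMB (next 411), and that of B1505 had 5.67 CPM of IL18R1 (next 11.4). On Day 150, B2502 had 77.7 CPM of CTSW (next 32.99) and 263 CPM of RGS18 (next 519.8), and B1003 had 250.1 CPM of ALOX15 (next 71.4). Their causes were not tested.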

How the results depend on the processing

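Against own control, the number of changed genes stayed between 3950 and 5147 under 10 alternatives that kept all 9 Day 150 libraries, beside 4325, and between 3738 and 4396 when 1 animal was left out. Without the replicate block, which pairs the draws of an animal, it was 4111, and it was 3976 with counts thinned to the smallest library, an alternative chosen after seeing the data. Of the 4325 calls 3507 were kept with library series as a term and 2799 within libraries of number 0. The sign of a called gene was opposite in 7 with library series as a term and in 43 within number 0. Against Day 30 the count was 2660, 2015 without the block, and 1796 to 3021 with 1 animal left out. The counts of 0 against Day 120, against Day 180, between the sexes and by last draw stayed at 0 without the block, with 1 animal left out (lowest 0, highest 0) and under the other alternatives, except that DESeq2 called 7 genes against Day 120 and 2 against Day 180. For named genes 1770 of 1844 values kept direction and call. Signs changed for LPL (-0.09), at 0.0271 without the block, 0.0504, 0.147 and 0.0154 without B1003, B1505 and B1506 (range -0.349 to 0.147 over animals left out), 0.0147 without a filter, 0.179 with library series as a term and 0.136 within number 0. They changed for CD14, at -0.0222 without B1506 and -0.0188 without B2502 (highest 0.327), and for CENPF, at 0.0246 within number 0. Calls were gained within number 0 for CD3E, NKG7, C1QB and TSC22D3, and with library series as a term for CD3E, CSF3R, FKBP5, PER1 and PPBP, while OAS1, CENPF, C1QC and CDKN1A lost theirs with that term. Within number 0 calls were also lost for FCER1A, CPA3, HBB, TSPO2, PHLDA3, ALOX15, MMRN1, USP18, IL3RA, MS4A2, C1QC, CDKN1A and ZBTB16. The cause was not tested. In the shallowest library 3 counts correspond to 1.21 CPM, which limits genes near that level.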
